A study of Mus musculus with 6 samples.

Results

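The genes described here are the 6 chemokine system genes of a custom qRT-PCR plate, the CC chemokines Ccl2, Ccl12, Ccl3 and Ccl11 and the chemokine receptors Ccr2 and Cxcr4. They were taken by symbol from the plate map, on which 84 genes were of interest and 8 were house-keeping genes, and all 6 were measured in each of 6 mice. The mice were female Balb/c, 10 weeks old in the methods of the study, irradiated at 5.8 Gy and reconstituted with 5000000 C57BL/6 bone marrow cells depleted of T and B cells and 1000000 C57BL/6 splenocytes (C57BL/6J donors in the methods), so that graft-versus-host disease (GVHD) was induced in all of them. The 3 GVHD controls, numbered 1 to 3 in the labels, received no CpG-proBs, and figure captions of the paper name an injection of PBS for such controls. The 3 CpG-proB recipients, numbered 4 to 6, also received 750000 CpG-proBs, B-cell progenitors activated with the TLR-9 agonist CpG, and the labels do not give the day of their transfer in these mice. Back skin (2 cm2) was taken at day+70 post-irradiation, in the chronic stage of the disease, and no healthy or ungrafted mouse was on the plate. The comparison asks how chemokine and receptor RNA in the skin differed when progenitors had been given.

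CC chemokines are small secreted proteins that attract leukocytes through G protein-coupled receptors. CCR2 is carried by inflammatory monocytes, which it brings out of the marrow and into tissue, and in the mouse both CCL2 and CCL12 are ligands for it. CCL3 attracts monocytes and T cells through other CC receptors, and CCL11, or eotaxin, attracts eosinophils through CCR3. CXCR4 is not a CC receptor. Its ligand is CXCL12, and it is carried by many leukocytes and by fibrocytes, circulating cells that produce collagen. Neither Cxcl12 nor the receptors of CCL3 and CCL11 were among the genes of the plate, so Ccr2 with Ccl2 and Ccl12 was the one receptor that could be set against its ligands.

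The 4 ligand genes are all on mouse chromosome 11, where Ccl2, Ccl7, Ccl11 and Ccl12 follow each other in this order in the GRCm38.p6 gene table, and Ccl3 lies apart from them with 30 protein-coding genes between. Ccr2 is on chromosome 9 and Cxcr4 on chromosome 1. The plate map places both Ccr2 primers in exon 3 (product of 125 bp), both Ccl12 primers in exon 3 (70 bp) and both Cxcr4 primers in exon 2 (99 bp). The primers of Ccl2 lie in exons 2 and 3 (113 bp), those of Ccl3 in exons 2 and 3 (89 bp), and those of Ccl11 in exon 1 and across the junction that follows it (69 bp). A primer pair within a single exon can also amplify genomic DNA, and whether any was present was not tested.

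RefSeq start regions in GRCm38.p6, from 250 bases before to 50 after the annotated start, were at hand for 4 of the 6 genes. Those of Ccr2 and Ccl12, whose values are set against each other below, and of Cxcr4, the gene that passed the study threshold, are printed 5′ to 3′ on the strand of the gene. Capitals mark TATAAA, searched on both strands.

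Ccr2, chr9:124101933-124102232, plus strand: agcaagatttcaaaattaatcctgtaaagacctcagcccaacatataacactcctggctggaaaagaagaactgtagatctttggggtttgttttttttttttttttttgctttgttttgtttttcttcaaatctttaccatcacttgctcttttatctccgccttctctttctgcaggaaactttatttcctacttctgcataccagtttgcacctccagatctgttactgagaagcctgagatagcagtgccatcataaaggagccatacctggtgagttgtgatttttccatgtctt

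Ccl12, chr11:82101595-82101894, plus strand: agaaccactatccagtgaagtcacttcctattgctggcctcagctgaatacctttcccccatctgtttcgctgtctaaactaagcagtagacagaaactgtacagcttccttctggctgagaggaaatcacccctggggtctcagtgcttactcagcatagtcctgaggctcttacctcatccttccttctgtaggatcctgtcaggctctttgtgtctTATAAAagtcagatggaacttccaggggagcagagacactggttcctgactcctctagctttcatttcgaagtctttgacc

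Cxcr4, chr1:128592250-128592549, minus strand: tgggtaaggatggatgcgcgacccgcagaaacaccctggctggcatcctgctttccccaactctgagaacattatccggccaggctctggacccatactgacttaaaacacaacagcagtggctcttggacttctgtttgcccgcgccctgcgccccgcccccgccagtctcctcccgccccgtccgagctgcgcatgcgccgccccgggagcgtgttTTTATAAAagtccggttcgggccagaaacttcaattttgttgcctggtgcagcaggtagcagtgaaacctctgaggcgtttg

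Ccl12 had TATAAA from base -31 relative to the start. Cxcr4 had it from base -30, overlapping a match on the other strand from base -32, and Ccr2 and Ccl3 had none. Of all 32851 start regions of the table, 13.6% held this motif. TTCNNNGAA, the core of STAT sites (8.3% of all start regions), and the kappa B motif (4.51%) had no match in the 4 regions. These are matches of letters only, since no binding was measured.

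A threshold cycle (Ct) was read from each well, the cycle at which SYBR Green fluorescence crossed a set level, and a lower Ct means more cDNA. Levels are given as −ΔCt, the mean Ct of 6 house-keeping genes (Ppia, Tbp, B2m, Rplp0, Tfrc and Gusb) in the same animal minus the Ct of the gene, a log2 scale on which higher means more RNA. Primer pairs differ in efficiency, so only the same gene, or the same pair of genes, is compared between animals. The negative-control wells had Ct values from 28.21 to 30.13, and the positive-control wells from 18.04 to 19.15. Ccl2 was the member nearest to the negative controls, with a Ct at or past the lower negative-control well of the same animal in 4 of 6 animals, namely control 2 and all 3 recipients. By Ct alone these 4 wells cannot be told apart from a negative control. Ccl12 stayed below the negative-control well of its own animal in all 6, though by little in recipient 5 (28.62 against 28.74), and the Ct values of Ccr2, Ccl3, Ccl11 and Cxcr4 were all below 28.21. Of the house-keeping genes, B2m had a mean Ct of 19.16 in controls and 18.40 in recipients, and Actb, outside the set of 6, moved the other way from 19.01 to 20.63. Every −ΔCt comparison therefore carries the choice of reference, and values of the 6 chemokine genes with all 8 are given beside those with 6.

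Of the 6 genes, Cxcr4 was lower in CpG-proB recipients when the 6 house-keeping genes were the reference, and the other 5 were not past the study threshold, a fold change of at least 1.4 with an unadjusted p of at most 0.05 (limma). The background was 14 of 82 genes tested, or 17.1%, past this threshold in either direction, and 4 genes, or 4.88%, past it and lower. So 1 of 6 is close to the share over the plate. With Benjamini-Hochberg adjustment over the 82 genes none of the 6 had an adjusted p of at most 0.05, against 2 genes of the plate (2.44%), and 1 of the 6 had an unadjusted p under 0.05. The log2 fold change, recipients minus controls, was below 0 for 5 of 6 genes, with a median of -0.55, beside 39 of 82 genes (47.6%) and a median of 0.11 over all genes tested. With all 8 house-keeping genes, 12 of 82 genes (14.6%) and none of the 6 passed the threshold, 4 of 6 were below 0, beside 26 of 82 genes (31.7%). With Actb alone 0 of 6 were below 0, beside 2 of 82 genes (2.44%), as all genes shift alike with the reference. With all 8 the medians were -0.26 for the 6 genes and 0.41 over the plate. The intervals were wide, and apart from that of Cxcr4 with 6 reference genes they all included 0.

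**Figure D1:**
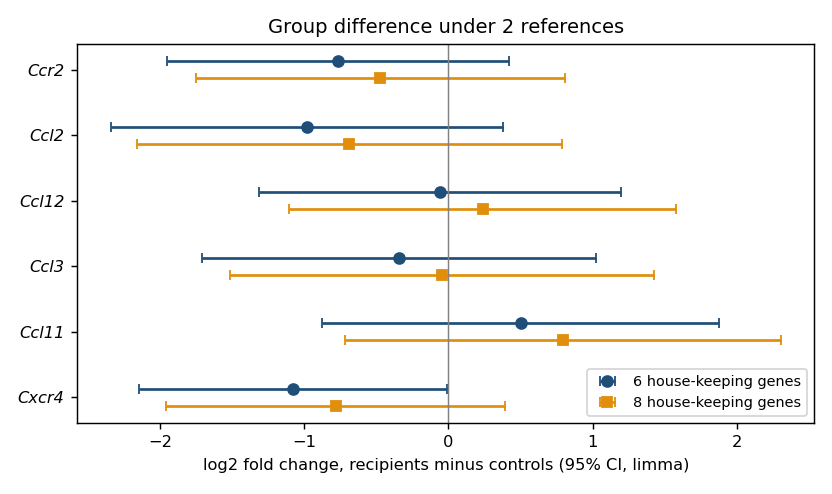
Log2 fold change (recipients minus controls) of the 6 genes with its 95% confidence interval from limma, 3 animals per group, with 6 (blue circles) or all 8 (orange squares) house-keeping genes as the reference. The interval of Cxcr4 lies below 0 with 6 genes (-2.15 to -0.01) and spans 0 with 8 (-1.95 to 0.39).

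Ccr2, the receptor of inflammatory monocytes, had −ΔCt values of -2.83, -3.84 and -2.01 in controls 1, 2 and 3 and of -3.38, -4.26 and -3.35 in recipients 4, 5 and 6. Controls 1 and 3 were above all recipients, while control 2 lay within their range. Controls averaged -2.90 ± 0.92 (SD, n = 3) and recipients -3.66 ± 0.52 (SD, n = 3), which gave a log2 fold change of -0.77 (SE 0.56, 95% interval -1.95 to 0.42, limma adjusted p = 0.458). With all 8 house-keeping genes it was -0.47 (adjusted p = 0.696). A difference in Ccr2 RNA was thus not shown at this number of animals. In skin, fewer cells of a type and less RNA per cell cannot be told apart in any of these values.

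Ccl2, which encodes the best known ligand of CCR2, had −ΔCt values of -5.92, -7.42 and -4.64 in controls and of -7.70, -6.46 and -6.77 in recipients. Controls 1 and 3 were again above all recipients and control 2 below recipients 5 and 6. Recipients minus controls, the log2 fold change was -0.98 (SE 0.64, 95% interval -2.34 to 0.38, adjusted p = 0.432), and -0.69 with all 8 house-keeping genes. Single controls moved this value, to -1.69 and past the threshold without control 2 (limma adjusted p = 0.198) and to -0.30 without control 3 (adjusted p = 0.805). The controls spread over more cycles of raw Ct (26.84 to 30.36) than the recipients did (29.17 to 29.75), which all lay between the lowest and highest negative control, so the size of any difference in Ccl2 is not well measured.

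Ccl12, the other CCR2 ligand, had −ΔCt values of -4.53, -5.50 and -4.15 in controls and of -4.59, -5.91 and -3.86 in recipients. The groups overlapped over nearly their whole range, with the highest and the lowest value both among recipients. The log2 fold change was -0.06 (SE 0.59, 95% interval -1.31 to 1.20, adjusted p = 0.985), and with all 8 house-keeping genes its sign turned, at 0.24. It also turned without control 1 (0.04), control 3 (0.23) or recipient 5 (0.51). A difference of about 1.2 cycles in either direction is within this interval.

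**Figure D2:**
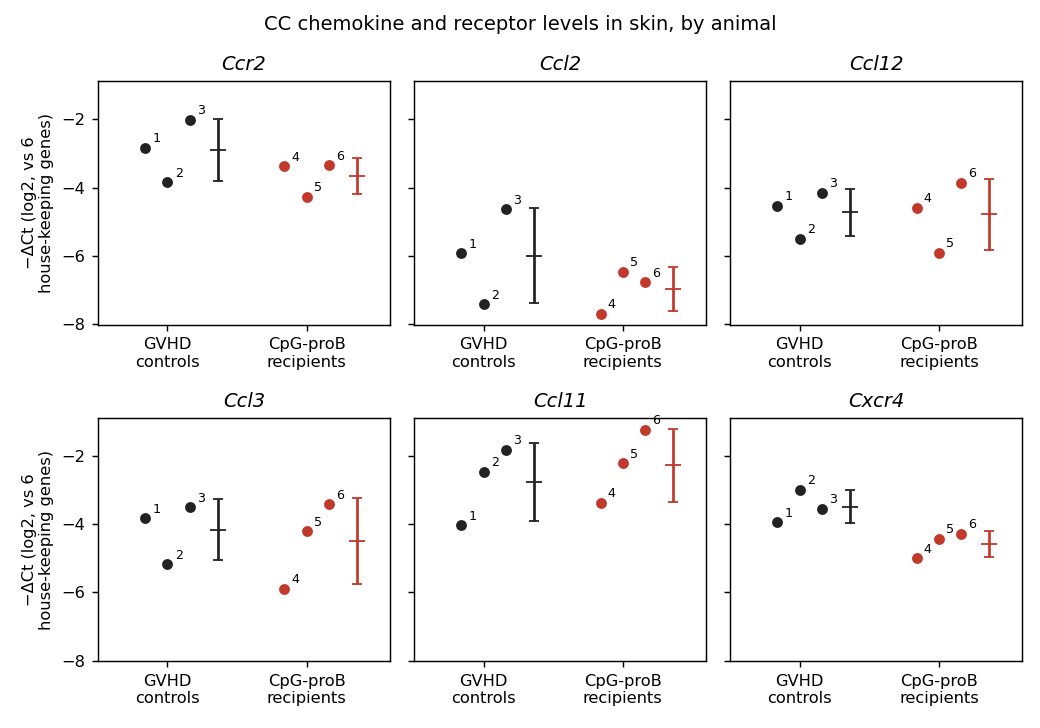
−ΔCt (log2, relative to 6 house-keeping genes) of each gene in each animal, numbered as in the labels, with controls in black and recipients in red; the bars beside the points are the mean ± SD of 3 animals. Only the groups of Cxcr4 do not overlap, with controls from -3.94 to -2.98 and recipients from -5.00 to -4.28.

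When a ligand is set against the receptor within each animal, no reference gene is needed. A difference between the groups was not shown for either ligand relative to Ccr2, nor for Ccl2 relative to Ccl12 (difference of means -0.92, exact permutation p = 0.3, adjusted over 15 pairs 0.75). The Ct of Ccr2 minus the Ct of Ccl2, the log2 of Ccl2 relative to Ccr2, was -3.09, -3.58 and -2.63 in controls and -4.32, -2.20 and -3.42 in recipients. Recipients held both the lowest and the highest value. The Ccl2 wells of control 2 and of all recipients were at or past the negative control of the same animal. In those animals the value cannot be read as a measured ratio of ligand to receptor. Controls averaged -3.10 ± 0.48 (SD, n = 3) and recipients -3.31 ± 1.06 (SD, n = 3). This difference of -0.21 was smaller than the SD of either group (exact permutation p = 0.9) and turned to 0.29 without recipient 4 and to 0.02 without control 3.

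The log2 of Ccl12 relative to Ccr2 was -1.70, -1.66 and -2.14 in controls and -1.21, -1.65 and -0.51 in recipients. All recipients were above all controls, but recipient 5 and control 2 were only 0.01 cycles apart. Controls averaged -1.83 ± 0.27 (SD, n = 3) and recipients -1.12 ± 0.57 (SD, n = 3). With 3 animals per group the exact permutation p cannot be below 0.1, and the difference of 0.71 reached that value (0.75 after adjustment over the 15 pairs of the 6 genes). It was the 1 pair of the 15 whose groups did not overlap, where 26.1% of all 3321 pairs of the 82 genes measured in every animal did not, so it does not stand out from the plate. The difference of means ranged from 0.40 without recipient 6 to 0.97 without recipient 5.

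**Figure D3:**
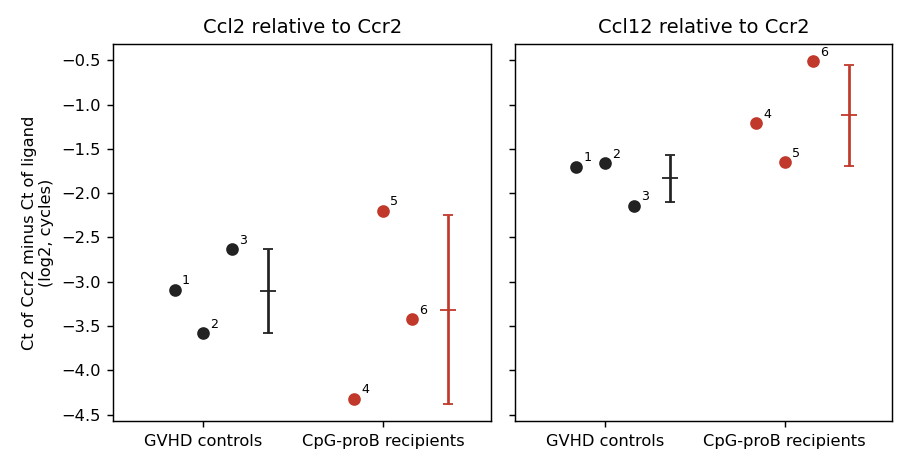
Ct of Ccr2 minus Ct of the ligand in each animal (cycles, a log2 ratio) for Ccl2 (left) and Ccl12 (right), with the mean ± SD of 3 animals beside the points. The Ccl2 values overlap between the groups, and the Ccl12 values of recipients 4 to 6 lie above those of controls, by 0.01 cycles at the nearest. Those of Ccl2 in control 2 and recipients 4 to 6 rest on wells at or past the negative control.

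The spread of these Ct differences over all 6 animals is given as a description, in which the Ccl2 values include the 4 wells at or past the negative control. The SD was 0.56 cycles for Ccl12 and Ccr2, and 10.9% of all pairs of genes on the plate had a smaller one. For Ccl2 and Ccr2 the SD was 0.75 (26.6% of pairs smaller), for Ccl2 and Ccl12 1.13 (66.7% smaller), and the median over all pairs was 0.96. Among the 15 pairs of the 6 genes, Ccl12 with Ccr2 had the smallest SD, followed by Ccl2 with Ccl3 (0.72) and Ccl2 with Ccr2, and Ccl2 with Ccl11 had the largest (1.36). No other pair differed between the groups with an exact permutation p under 0.2. The largest difference of means was that of Ccl11 relative to Cxcr4, which was -0.09, 0.52 and 1.73 in controls and 1.63, 2.21 and 3.05 in recipients. Control 3 lay just above recipient 4, and the difference of 1.58 had an exact permutation p of 0.2 (0.75 adjusted over the 15 pairs).

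Across animals, −ΔCt of Ccr2 and of Ccl12 had a Pearson r of 0.75 and a Spearman rho of 0.83 (n = 6; exact permutation p = 0.0583 for each, 0.167 and 0.175 after adjustment over 3 correlations). Without control 3 and recipient 5, the animals farthest from the median of Ccr2, r was 0.57. Ccr2 and Ccl2 had an r of 0.74 and a rho of 0.60 (exact permutation p = 0.111 and 0.242, adjusted 0.167 and 0.362), and an r of 0.80 without the same animals. Ccl2 and Ccl12 had an r of 0.33 and a rho of 0.31 (exact permutation p = 0.533 and 0.564, which adjustment left as they were), and 0.24 without control 3 and recipient 4. So none of the 3 correlations passed an adjusted p of 0.05. All values with Ccl2 include the 4 wells at or past the negative control of the same animal. With all 8 house-keeping genes r was 0.76 for Ccr2 with Ccl12 (rho 0.89, exact permutation p = 0.0583 and 0.0333, adjusted 0.175 and 0.1), 0.81 without the same animals, 0.74 for Ccr2 with Ccl2 and 0.34 for Ccl2 with Ccl12. On raw Ct, where animals also share their amount of template, Ccr2 and Ccl12 had an r of 0.90 (exact permutation p = 0.0139, adjusted 0.0417), and with −ΔCt centred on each group r was 0.86 for Ccr2 with Ccl12, 0.65 for Ccr2 with Ccl2 and 0.36 for Ccl2 with Ccl12. Control 2 and recipient 5 were the animals lowest in Ccr2 and in Ccl12 in their groups, and without them the centred r of Ccr2 and Ccl12 was 0.37. Their Ccl12 Ct (28.44 and 28.62) was past the lowest negative control of all animals (28.21), though not past those of the same animal.

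**Figure D4:**
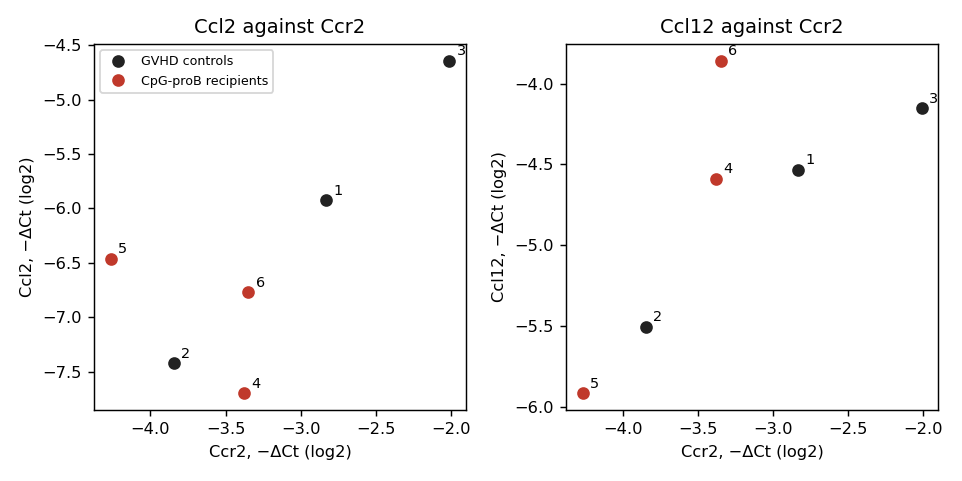
−ΔCt (log2) of Ccl2 (left) and Ccl12 (right) against that of Ccr2 in each animal, numbered as in the labels, with controls in black and recipients in red. Control 2 and recipient 5 are lowest in Ccr2 and Ccl12, and at like Ccr2 recipients 4 and 6 differ from -7.70 to -6.77 in Ccl2. The Ccl2 wells of control 2 and of all recipients were at or past the negative control.

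Ccl3, which attracts monocytes and T cells, had −ΔCt values of -3.82, -5.17 and -3.49 in controls and of -5.89, -4.20 and -3.42 in recipients, which held both extremes. Its log2 fold change was -0.34 (SE 0.65, 95% interval -1.71 to 1.02, adjusted p = 0.813), and -0.05 with all 8 house-keeping genes. Recipient 4 set its sign, since without it the value was 0.35. That animal had the lowest −ΔCt of the 6 for Ccl2, Ccl3 and Cxcr4, but not for Ccr2, Ccl12 or Ccl11.

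Ccl11, the eosinophil attractant, was the one gene of the 6 with a higher mean in recipients under the 6-gene reference, and Ccl12 joined it with all 8. Its −ΔCt values were -4.03, -2.46 and -1.81 in controls and -3.37, -2.21 and -1.23 in recipients, so that the groups overlapped and control 1 was the lowest of all. It had a log2 fold change of 0.50 (SE 0.65, 95% interval -0.87 to 1.87, adjusted p = 0.743), it was 0.79 with all 8 house-keeping genes, and it turned to -0.13 without control 1 and to -0.02 without recipient 6. Ccl11 is induced in skin by type 2 cytokines, and of a chosen list of 6 type 2 genes (Il4, Il5, Il13, Stat6, Gata3 and Il33), which leaves out Il13ra2, 1 passed the threshold, higher, and none lower, a share like the 17.1% of the plate. Their median log2 fold change was 0.56, beside 0.11 over the plate (0.86 and 0.41 with all 8 house-keeping genes). The gene that passed was Il33, an alarmin of epithelial cells, with a log2 fold change of 1.76 (SE 0.54, limma adjusted p = 0.0610). With all 8 house-keeping genes Il33 was at 2.05 (limma adjusted p = 0.0413). Il4 and Il13, the cytokines that act on Ccl11, had log2 fold changes of 0.26 and -0.11 (0.56 and 0.18 with all 8 house-keeping genes). Those of Il13 came from wells at or past the negative controls in all 6 animals.

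Cxcr4, the CXCL12 receptor, had −ΔCt values of -3.94, -2.98 and -3.54 in controls 1, 2 and 3 and of -5.00, -4.42 and -4.28 in recipients 4, 5 and 6. All recipients were below all controls, by 0.34 cycles at the nearest, and raw Ct separated the groups as well (25.28 to 25.92 against 26.66 to 27.26). The groups of 20.7% of the genes tested did not overlap in −ΔCt, 4 of them with recipients lower, and those of 25.6% did not overlap in raw Ct, 12 of them with recipients lower. Controls averaged -3.49 ± 0.48 (SD, n = 3) and recipients -4.57 ± 0.38 (SD, n = 3), which gave a log2 fold change of -1.08 or 0.474 times the control level (SE 0.51, 95% interval -2.15 to -0.01, unadjusted limma p = 0.0485, adjusted p = 0.284, exact permutation p = 0.1). With all 8 house-keeping genes the log2 fold change was -0.78 (limma adjusted p = 0.517) and the groups overlapped. Leaving Tbp (-1.08), B2m (-0.87) or Gusb (-1.003) out of the reference, or using no reference (-1.37), ended the call as well. It was also lost without control 2, control 3, recipient 4 or recipient 5, when the log2 fold change was -0.82, -1.10, -0.86 and -1.15.

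Taken against each house-keeping gene alone, a comparison chosen after seeing the data for all but Actb, Cxcr4 was lower in recipients against 7 of the 8 genes and against all 6 of the reference. The log2 fold change was -2.13 against B2m, -1.45 against Gusb, -1.21 against Rplp0 and -1.04 against Tbp. It was -0.44 against Tfrc, -0.19 against Ppia and -0.05 against Hprt, and it turned to 0.25 against Actb. The groups did not overlap against Tbp, B2m and Gusb (exact permutation p = 0.1 each) and overlapped against the others. Each house-keeping gene shifts all genes of the plate alike, and how many of them were lower or did not overlap against each was not counted. The mean Ct of B2m was 19.16 in controls and 18.40 in recipients, so every gene set against it shifts toward lower values in recipients. These values are therefore not particular to Cxcr4.

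**Figure D5:**
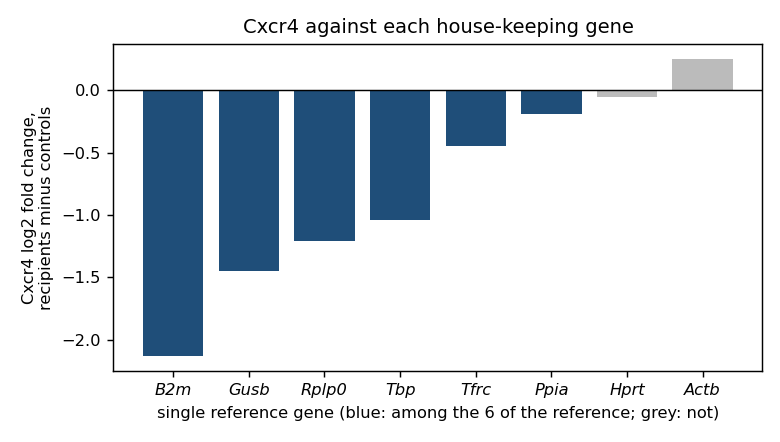
Log2 fold change of Cxcr4 (recipients minus controls, means of 3 animals per group, bars from 0) against each house-keeping gene alone, blue for the 6 of the reference and grey for the other two. The bars run from -2.13 against B2m to 0.25 against Actb.

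Pdgfa encodes a platelet-derived growth factor chain that is known to raise CXCR4. It had −ΔCt values of -4.79, -4.46 and -4.66 in controls and of -5.75, -5.29 and -4.98 in recipients, which were all lower. With all 8 house-keeping genes the groups overlapped, as recipient 6 (-4.73) was above control 1 (-5.06). Its log2 fold change of -0.70 (SE 0.49, adjusted p = 0.432), or -0.41 with all 8, was not past the threshold. Under the 6-gene reference, Pdgfa and Mmp13, a collagenase, were the genes whose −ΔCt followed Cxcr4 most closely over the 6 animals (r = 0.96 each, and 0.93 and 0.95 with all 8), but Mmp13 had a Ct of 30.31 to 32.02, past the negative controls in all 6. Of a chosen list of 6 fibrosis genes (Pdgfa, Pdgfb, Tgfb1, Col1a2, Col3a1 and Acta2), which leaves out other fibrosis genes of the plate, 1 passed the threshold as higher and 1 as lower, beside 17.1% of the plate in either direction. Their median log2 fold change was -0.27, which turned to 0.02 with all 8 house-keeping genes. Pdgfb, the other chain of the growth factor, was higher (1.70, SE 0.51, adjusted p = 0.0610), and Col3a1, type III collagen, was lower (-1.45, SE 0.54, adjusted p = 0.180). With all 8 house-keeping genes Col3a1 was not past the threshold, at -1.16 (adjusted p = 0.294), and Pdgfb was, at 1.99 (adjusted p = 0.0413).

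The other genes were chosen by likeness of −ΔCt over the 6 animals, the 2 highest Pearson r among 81 genes, as a description in which all points share a plate and a reference. For Ccr2 and for Ccl12 they were the same, Il22, a cytokine of T cells and innate lymphoid cells (r = 0.94 with Ccr2 and 0.86 with Ccl12), and Eomes, a transcription factor of cytotoxic lymphocytes (0.89 and 0.85). For Ccl2 they were Plg (0.83) and Il17f (0.82), for Ccl3 Il17a (0.87) and Nos2 (0.85), and for Ccl11 Cav1 (0.91) and Il5 (0.89). The Ct of Il5 and Il17a was at or past the lower negative control of the same animal in all 6 animals, and that of Plg and Nos2 in 5.

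The counts for genes of cells and signals around the chemokines are to be read beside the 17.1% of the plate past the threshold. Of 4 monocyte and macrophage genes (Adgre1, Cd68, Csf1r and Nos2), 1 passed the threshold, higher, with a median log2 fold change of -0.22 that turned to 0.07 with all 8 house-keeping genes. It was Csf1r, the receptor of the macrophage growth factor, at 1.30 (SE 0.51, adjusted p = 0.183), whereas Adgre1 and Cd68, which mark macrophages, had log2 fold changes of -0.60 and -0.56 (-0.30 and -0.27 with all 8 house-keeping genes). The mean −ΔCt of the macrophage markers Adgre1, Cd68 and Csf1r ranged from -5.15 to -4.06 over the controls and from -4.90 to -4.26 over the recipients. Of 6 inducers of chemokines (Il1a, Il1b, Tnf, Il6, Ifng and Nfkb1) none passed the threshold, and their log2 fold changes ranged from -0.04 to 0.35 (from 0.25 to 0.64 with all 8 house-keeping genes). The T and NK cell markers Gzmb, Eomes and Tbx21 gave no call either, and their mean ranged from -6.96 to -4.78 over the controls and from -6.22 to -5.64 over the recipients, with Tbx21 at or past the negative control of the same animal in all 6. Fcer2a, a B-cell marker, was lower (log2 fold change -1.72, adjusted p = 0.183), but not past the threshold with all 8 house-keeping genes, at -1.42. Its Ct was at or past the negative control of the same animal in 5 of 6 animals, so the size of this difference is not well measured. Kit, a mast cell marker, gave a Ct in 3 of 6 animals and was not tested. The fibroblast markers Col1a2 and Col3a1 and the myofibroblast marker Acta2 gave a Ct in all animals, with Col3a1 lower in recipients as given above and log2 fold changes of 0.16 for Col1a2 and 0.48 for Acta2 (0.45 and 0.78 with all 8 house-keeping genes) that did not pass, and the plate held no keratinocyte gene. The part of these cells in the chemokine values was not tested.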

How the data were processed

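The authors extracted RNA from frozen back skin, made cDNA with random primers and ran a custom SYBR Green plate of 96 wells per mouse. They deposited 1 Ct per well, not normalized (another unit than counts, in cycles), which are used here, and a table of their own ΔΔCt (log2) and fold between the groups for each gene, from which no value enters the results. How the Ct was called, the number of technical repeats and what the negative-control wells held are not given in the sources used here. Wells were named by the plate map, and samples were grouped by their labels. The paper does not name its 6 house-keeping genes. The set used comes from an earlier analysis that matched it to the deposited ΔΔCt, and it was checked once against them, so results with all 8 are given too. −ΔCt assumes full amplification efficiency.

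Groups were compared with limma 3.58.1 (lmFit, eBayes, two-sided) in R 4.3.3 over the 82 genes with at least 2 Ct values per group, with Benjamini-Hochberg adjustment, and single values with exact permutation tests in scipy (two-sided, smallest p 0.1). The script was tested on simulated data. P-values set a group difference against the spread between these 6 mice, which limma takes in part from the other genes. With the variance of each gene alone the SE was larger for Ccr2 (0.61), Ccl2 (0.89), Ccl12 (0.72), Ccl3 (0.89) and Ccl11 (0.90). For Cxcr4 it was smaller (0.35). Named were the 6 genes, the genes of 4 lists that passed the threshold or have a stated link, marker genes and, for each of the 6, the 2 genes most alike. The genes and lists were chosen with earlier results of these data known. Some genes of the lists are not reported here. Alternatives changed the reference, mean, missing wells, filter, variance, threshold and animals. A Ct near the negative controls limits precision.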

Additional observations from a re-analysis of the deposited data

How the results depend on the processing

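No paired analysis was possible because the labels number the animals from 1 to 6 without repeating a number between the groups. The reference shifts the log2 fold changes of all genes alike. With Actb alone the median log2 fold change of all genes was 1.44, and Ccr2 (0.56), Ccl2 (0.35), Ccl12 (1.27), Ccl3 (0.99) and Cxcr4 (0.25) turned to above 0 while Ccl11 (1.83) passed the threshold, as did 38 of all 82 genes. Each of the 6 genes had the same SE there (0.76), so this call of Ccl11 rests on a pooled variance. With the median gene of interest as reference Ccr2 (-1.14), Ccl2 (-1.35) and Cxcr4 passed, 3 genes beside 22 of 82, and with the 3 least variable house-keeping genes (Tbp, B2m and Gusb) Ccl2 (-1.44) and Cxcr4 passed, 2 genes beside 22 of 82. None of the 6 genes, 0 in count, passed with all 8 house-keeping genes (12 of 82 genes did), without Tbp (12), B2m (11) or Gusb (12) in the reference, with no reference (6), at a p of at most 0.01 (6) or at an adjusted p of at most 0.05 (2). Cxcr4 was then -0.78 with all 8, -1.08 without Tbp, -0.87 without B2m, -1.003 without Gusb and -1.37 with no reference. Ccl12 turned to above 0 with all 8 (0.24), without B2m (0.15) and without Gusb (0.017). The correlation of Ccr2 with Ccl12 passed on raw Ct (0.90).

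With each animal left out, 0 to 1 of the 6 genes passed the threshold, beside 11 to 16 of all 82. The log2 fold change ranged from -1.30 to -0.82 for Cxcr4, from -1.24 to -0.33 for Ccr2, from -1.69 to -0.30 for Ccl2, from -0.52 to 0.51 for Ccl12, from -0.88 to 0.35 for Ccl3 and from -0.13 to 1.05 for Ccl11. The difference of means ranged from -0.77 to 0.29 for Ccl2 relative to Ccr2 and from 0.40 to 0.97 for Ccl12 relative to Ccr2. Medians in place of means gave -0.33 and 0.49. Where leaving out an animal left 2 in a group, the variance was pooled by limma. The geometric mean of the Ct, missing wells at 40, a mean Ct of at most 35 and the 3 other variance models changed no call of the 6 genes. The filter at the lowest negative control removed Ccl2, and the cause of the other changes was not tested.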
